A study of Caenorhabditis elegans with 6 samples.

Results

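The *ceh* genes (*C. elegans* homeobox) encode transcription factors that share the homeodomain, a DNA-binding fold. The genes described here are the rows of the deposited raw counts table whose gene symbol starts with *ceh-*, with *ceh-13* and *ceh-18* left out, which gave 61 of the 46756 genes listed. Poly(A) RNA was sequenced from whole hermaphrodites at adulthood day 2, in 3 libraries of high exopher worms (more than 20 exophers each) and 3 of low exopher worms (fewer than 2 each). Exophers are very large vesicles that body wall muscle cells extrude. All worms were of strain ACH93 on OP50 *E. coli*, a wild-type N2 background that carries a proteasome subunit tagged with wrmScarlet and a mitochondrial GFP, both driven by the *myo-3* promoter in body wall muscle. Both groups carry the same transgenes and no labelled mutation or treatment, they were sorted by exopher number from age-synchronized populations, and the sources used here do not give the number of worms per library. The comparison asks which *ceh* transcripts differ between worms that release many exophers and worms that release few.

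Homeodomain proteins bind short DNA sites, and many act as terminal selectors, which switch on and maintain the genes that give a cell its final identity. In *C. elegans* nearly every neuron class expresses its own combination of homeodomain proteins, and others pattern the pharynx, the epidermis, the excretory system and the embryo. Most are therefore transcribed in few cells of an adult, so that whole worm RNA holds little of each. The classes are named by the sequence of the homeodomain and of the domains beside it. ANTP class members include the NK, empty spiracles, engrailed and Distal-less types, CUT class members carry an extra cut domain, LIM and POU members a LIM or POU domain, sine oculis class members a domain named after that fly gene, and TALE members an extended homeodomain.

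Counts per library totalled between 65814796 and 70280441 in the high exopher group and between 60511481 and 72909583 in the low exopher group. The labels call the replicates biological, and replicates of the same group differed beyond sampling noise, so all 6 libraries were kept. Of the 61 *ceh* genes, 50 passed edgeR's filter on low counts and were tested among 15883 genes. Low exopher replicate 3 had the lowest normalized count of its group for 34 of the 50 *ceh* genes (68.0%), compared with 40% of all genes tested. High exopher replicate 2 was the highest of its group for 27 of the 50 (54%), compared with 31.8% of all genes. Normalized counts are counts scaled to a common library size.

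Of the 50 *ceh* genes tested, *ceh-48*, *ceh-22* and *ceh-2* passed the thresholds (adjusted p below 0.05 and absolute log2 fold change above 1, high over low) with higher expression in high exopher worms, and 0 passed with lower expression. Among all genes tested, 2.95% passed as higher and 2.78% as lower. At an unadjusted p below 0.05, 16 of the 50 were higher and 1 was lower, where all genes gave 8.98% and 8.07%. The groups did not overlap for 17 *ceh* genes that were higher in high exopher worms and for 1 that was lower, compared with 11.8% and 9.96% of all genes. Of the 50 genes, *ceh-1*, *ceh-17*, *ceh-24* and *ceh-57* passed the minimum of the filter on low counts in all high exopher libraries but not in all low exopher libraries, and *ceh-76* the other way round, so that the first 4 entered the test through the group in which they were high. Without these 5, a comparison added after the values were seen, 12 of 45 were higher at an unadjusted p below 0.05 and 13 were higher with no overlap, compared with 8.12% and 11% of all genes when their like were also left out, and the median log2 fold change was 0.14. The log2 fold changes of the 50 ran from -0.34 to 1.55 with a median of 0.22, whereas the median of all genes was -0.01. Of the 50, 18 lay above 0.5 and 0 lay below -0.5, where 1848 and 1766 of all 15883 genes did. Without the 5 genes named above, 14 of 45 lay above 0.5 and 0 below -0.5. Of the 14601 genes left when their like were also left out, 1484 and 1106 did. The median was 0.04 without high exopher replicate 2, the library that was most often the highest. RNA was taken from whole worms, so more cells of a type and more RNA per cell cannot be told apart.

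*ceh-48* (WBGene00015934) encodes a ONECUT factor of the CUT class, found throughout the nervous system, where it acts with other CUT factors on genes that all neurons use. It lies on chromosome IV from 6812108 to 6815607 (plus strand, WBcel235, Ensembl release 115). It had normalized counts of 303, 389 and 380 in the high exopher libraries, against 143, 202 and 131 in the low exopher libraries. Every high exopher library lay above every low exopher library, and the lowest high value was 303 where the highest low value was 202. The log2 fold change was 1.17 ± 0.237 (SE, n = 3 each), with an adjusted p of 0.0278 in edgeR's quasi-likelihood test. Because the groups did not overlap, the high exopher library was necessarily the higher in all 3 same-numbered pairs. For *ceh-48* the differences were 1.08, 0.94 and 1.53 on the log2 scale. In all, 23 of the 50 *ceh* genes were higher in all 3 pairs and 2 were lower in all 3, compared with 21.1% and 24.0% of all genes. This count repeats part of the overlap result, since genes higher with no overlap are necessarily higher in all 3 pairs. Without the genes that met the filter's minimum throughout only 1 group, 19 of 45 were higher in all 3 pairs and 2 lower. Of the 14601 genes left when their like were also left out, 3010 and 3160 were.

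*ceh-22* (WBGene00000445) encodes an NK type factor of pharyngeal muscle, known for activating the pharyngeal myosin gene *myo-2*. It lies on chromosome V from 10671918 to 10675769 on the plus strand. Its normalized counts were 287, 187 and 193 in high exopher worms, against 87.8, 102 and 54 in low exopher worms. High exopher replicate 1 stood above the other high exopher libraries, and the groups did not overlap. The log2 fold change was 1.45 ± 0.313 (SE), and edgeR's adjusted p was 0.0347. Its target *myo-2* averaged 1082 in high exopher worms and 1319 in low exopher worms, a log2 fold change of -0.29 with an unadjusted p of 0.454. *myo-2* belongs to a list of 10 pharyngeal muscle genes given below, of which 7 had a log2 fold change above 0, where 47.2% of all genes did. *ceh-22* shares 555 exon bases with the opposite-strand noncoding gene F29F11.19, which had 0, 0 and 1 counts in the high exopher libraries and 0 in each low exopher library. The sources used here do not say whether the counting used strand.

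*ceh-2* (WBGene00000429) encodes an empty spiracles type factor of pharyngeal neurons. It lies on chromosome I from 6046788 to 6050451 on the minus strand. It had 155, 108 and 86.7 normalized counts in the high exopher libraries, against 40.2, 52.3 and 26.4 in the low exopher libraries. High exopher replicate 1 was again the highest and low exopher replicate 3 the lowest. The log2 fold change of 1.55 ± 0.359 (SE) was the highest among the 50 *ceh* genes, with an adjusted p of 0.0444 in edgeR's test.

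The calls of all 3 genes rested on all but 1 of the libraries. Leaving out high exopher replicate 1, 2 or 3 or low exopher replicate 1 or 3 ended each of them, with an adjusted p between 0.0726 and 0.134 for *ceh-2*, 0.0709 and 0.108 for *ceh-22*, and 0.0634 and 0.104 for *ceh-48*, while without low exopher replicate 2 they gave 0.0345, 0.0299 and 0.0169. The log2 fold changes stayed above 1 throughout, between 1.28 and 1.78 for *ceh-2*, 1.22 and 1.62 for *ceh-22*, and 1.05 and 1.37 for *ceh-48*. With the replicate number as a block, *ceh-8* and *ceh-17* also passed, 5 genes in all, where 4.29% of all genes passed as higher. Of these, *ceh-17* had entered the test through its high exopher libraries. DESeq2's Wald test called 4, the 3 genes and *ceh-8*, where 4.10% of all genes passed as higher. An exact permutation test of a single gene cannot go below p = 0.1 with 3 libraries against 3, and all 3 genes gave this value.

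**Figure D1:**
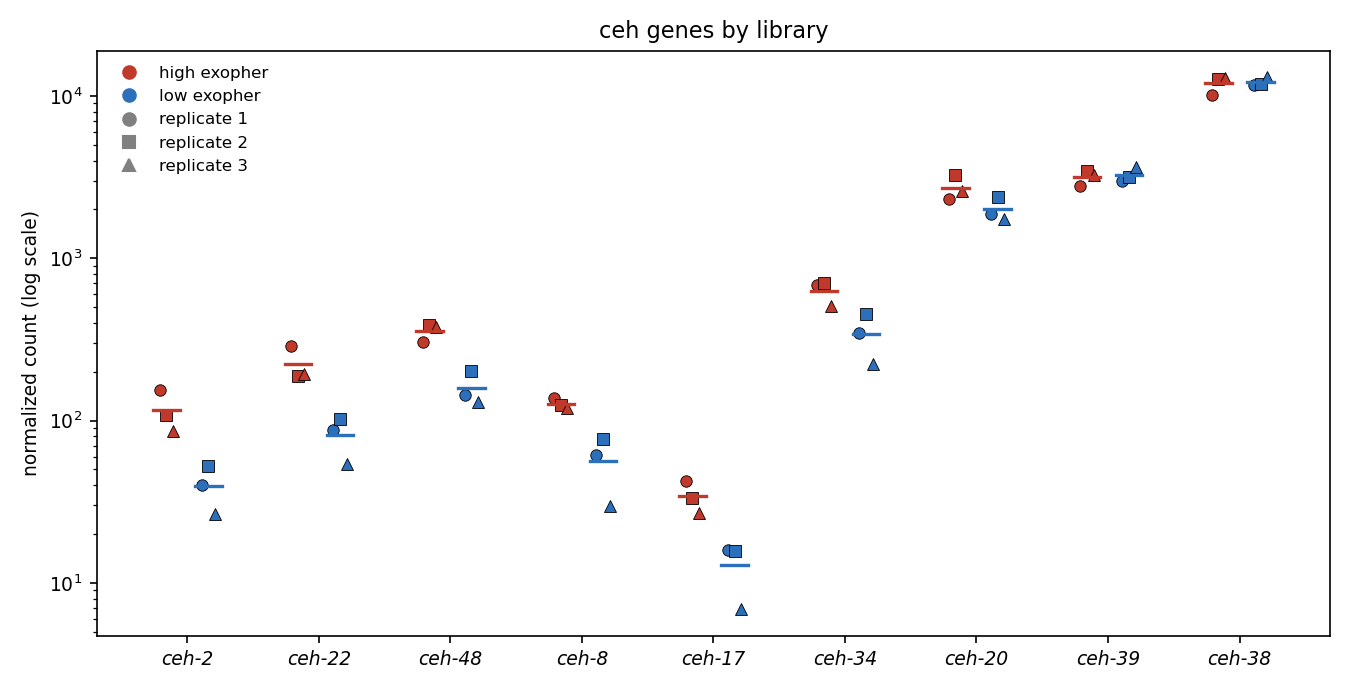
Normalized counts (log axis) of 9 *ceh* genes in each library, with high exopher libraries in red left of low exopher libraries in blue, marker shape for the replicate and a line at each group mean. For *ceh-2*, *ceh-22*, *ceh-48*, *ceh-8*, *ceh-17* and *ceh-34* all 3 high exopher libraries lie above all 3 low exopher libraries, while the groups overlap for *ceh-20*, *ceh-39* and *ceh-38*.

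The ANTP class held 17 of the 61 genes, of which 12 were tested. Beside *ceh-2* and *ceh-22*, 0 others passed, 10 of the 12 had a log2 fold change above 0, and the class median was 0.79. Among all genes tested, 47.2% had a log2 fold change above 0. The class values include *ceh-1* and *ceh-24*, which entered the test through their high exopher libraries. *ceh-24*, an NK type gene of vulval muscles and some head neurons, had 88.2, 34.4 and 36.6 normalized counts in high exopher worms, against 20.6, 28.3 and 5.75 in low exopher worms. The groups did not overlap, but high exopher replicate 1 was far above the others. Its log2 fold change was 1.53 ± 0.608 (SE), with an adjusted p of 0.240.

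*ceh-30* and *ceh-31*, adjacent BarH type genes named here after their values were seen, had log2 fold changes of 0.85 and 0.97 with adjusted p of 0.302 and 0.125. *ceh-30* is known for keeping the male-specific CEM neurons alive. *ceh-31* had 111, 76.9 and 83.8 normalized counts in high exopher worms, against 48.6, 55.5 and 34.5 in low exopher worms, with no overlap. The Distal-less type gene *ceh-43*, which acts in dopaminergic neurons and in the embryonic head, had 1138, 2763 and 1531 in high exopher worms, against 1511, 2174 and 1245 in low exopher worms. These groups overlapped completely, replicate 2 was the highest library of each group, and the log2 fold change was 0.14 ± 0.335 (SE). The other 6 ANTP genes ran from -0.13 for *ceh-51*, a regulator of embryonic mesoderm, to 1.02 for *ceh-1*.

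The paired-like class held 8 genes, of which 7 were tested, 0 passed, and the median was 0.64. This median includes *ceh-17*, which entered the test through its high exopher libraries. *ceh-17*, a Phox type gene of the ALA and SIA neurons, had 42.7, 33.4 and 27 normalized counts in high exopher worms, against 15.9, 15.7 and 6.90 in low exopher worms. The groups did not overlap. Its log2 fold change was 1.40 ± 0.422 (SE), with an adjusted p of 0.110 without and 0.0376 with the replicate block, and between 0.0376 and 0.995 over all alternatives. The upper end came from the test against a log2 fold change of 1, and the other alternatives gave at most 0.295. *ceh-8*, a gene of the RIA interneurons that was named after its values were seen, had 138, 125 and 119 in high exopher worms, against 61.7, 77.4 and 29.9 in low exopher worms. Its high exopher libraries lay close together and its low exopher libraries spread widely. The log2 fold change was 1.17 ± 0.358 (SE), and the adjusted p was 0.115 in edgeR's test, 0.0334 with the replicate block and 0.0244 in DESeq2, with a range of 0.0244 to 1.00 over the alternatives. Again the test against a log2 fold change of 1 gave the upper end, and the other alternatives at most 0.245. *ceh-8* shares 76 exon bases with a noncoding gene on its own strand, ZK265.11, which held between 5 and 7 counts in every library.

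*ceh-10*, which acts with the LIM factor TTX-3 to specify the AIY interneurons, had 175, 253 and 145 normalized counts in high exopher worms, against 122, 139 and 105 in low exopher worms. All high exopher libraries were above all low exopher libraries by a small gap, with a log2 fold change of 0.64 ± 0.274 (SE) and an adjusted p of 0.283. Its partner *ttx-3* averaged 44.7 ± 3.11 in high exopher worms and 18.5 ± 3.11 in low exopher worms (SD, n = 3 each), a log2 fold change of 1.27 with an adjusted p of 0.0556, which was 0.0406 with the replicate block and 0.0261 in DESeq2, so that it passed in both. The Otx type genes *ceh-36*, of the AWC and ASE sensory neurons, and *ceh-37*, of AWB, did not separate the groups. *ceh-36* had 226, 659 and 398 in high exopher worms, against 429, 676 and 280 in low exopher worms, and *ceh-37* had a log2 fold change of 0.26 ± 0.237 (SE).

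The LIM class gene *ceh-14*, which acts in the thermosensory neuron AFD and other neurons, had 58.5, 52.6 and 65.5 normalized counts in high exopher worms, against 30.8, 38.7 and 42.5 in low exopher worms. The groups did not overlap, and the log2 fold change was 0.66 ± 0.286 (SE) with an adjusted p of 0.298. The POU class gene *ceh-6*, needed for the excretory canal cell, had 294, 349 and 213 in high exopher worms, against 157, 236 and 111 in low exopher worms. The lowest high exopher library lay below the highest low exopher library, and the log2 fold change was 0.76 ± 0.321 (SE) with an adjusted p of 0.279. Within each same-numbered pair the high exopher library was the higher.

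The sine oculis class held 3 genes, all tested, of which 0 passed, and the median was 0.38. *ceh-34*, which is needed for the identity of all pharyngeal neurons, had 687, 701 and 511 normalized counts in high exopher worms, against 345, 455 and 224 in low exopher worms. The groups did not overlap. Its log2 fold change was 0.89 ± 0.274 (SE), below the fold threshold, and its adjusted p was 0.120 in edgeR's test, 0.00993 with the replicate block and 0.0177 in DESeq2, with a range of 0.00993 to 1.00 over the alternatives. The upper end came from the test against a log2 fold change of 1, and the other alternatives gave at most 0.265. Without low exopher replicate 2 it passed, with a log2 fold change of 1.13 and an adjusted p of 0.0411. *ceh-33*, which lies 3616 bases from *ceh-34* on the same strand, was close to the filter on low counts, with 7.42, 16.2 and 7.71 in high exopher worms, against 13.1, 3.14 and 16.1 in low exopher worms. *ceh-32*, a regulator of head morphogenesis, had a log2 fold change of 0.38 ± 0.325 (SE) and an adjusted p of 0.686.

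The CUT class was split between *ceh-48* and the other 5 genes, whose log2 fold changes lay between -0.07 and -0.02. *ceh-38*, a widely expressed ONECUT gene, had 10195, 12750 and 12917 normalized counts in high exopher worms, against 11615, 11920 and 13033 in low exopher worms. *ceh-39*, an X signal element that counts X chromosomes in sex determination, had 2787, 3460 and 3266 in high exopher worms, against 2976, 3189 and 3628 in low exopher worms. Both overlapped between the groups, with log2 fold changes of -0.03 ± 0.103 and -0.04 ± 0.110 (SE) and adjusted p of 0.947 and 0.918. *ceh-39* lies with *ceh-41* and *ceh-21* in a row on chromosome X, 103 and 1137 bases apart, and the adjusted p of these neighbours were 0.899 and 0.963. The *ceh-44* locus (WBGene00000464), which carries another CUT gene, bears the symbol *cone-1* in the annotation used and was not among the 61. Its counts pool the products of the locus, and it had 9720 ± 519 in high exopher worms and 9612 ± 453 in low exopher worms (SD, n = 3 each), with a log2 fold change of 0.02 ± 0.0695 (SE) and an adjusted p of 0.952.

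The TALE class held 3 PBX type genes. *ceh-20*, a cofactor of Hox proteins, had 2324, 3265 and 2593 normalized counts in high exopher worms, against 1876, 2403 and 1738 in low exopher worms. The groups overlapped by 1 library each, but the high exopher library was the higher in all 3 same-numbered pairs, by 0.31, 0.44 and 0.58 on the log2 scale. The log2 fold change was 0.44 ± 0.165 (SE), with an adjusted p of 0.208 without and 0.0154 with the replicate block, where it stayed below the fold threshold, and between 0.0154 and 1.00 over the alternatives. The upper end came from the test against a log2 fold change of 1, and the other alternatives gave at most 0.518. *ceh-60*, which promotes yolk protein expression in the intestine, had 331, 326 and 211 in high exopher worms, against 360, 318 and 277 in low exopher worms, with a log2 fold change of -0.14 ± 0.233 (SE). The 6 yolk protein genes gave 0 calls, a median log2 fold change of -0.45, and summed normalized counts from 3594422 to 4696025 in high exopher worms and from 5114311 to 6479497 in low exopher worms. At an unadjusted p below 0.05 in edgeR's test, 5 of the 6 were lower and 0 higher, where all genes gave 8.07% and 8.98%. The groups did not overlap for 4 that were lower and 0 that were higher, compared with 9.96% and 11.8% of all genes.

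The remaining 22 *ceh* genes were not placed in a class. Of these, 17 were tested, 0 passed, and the median log2 fold change was -0.03, close to the -0.01 of all genes. The lowest values of the whole family were here. *ceh-91* had 1799, 1997 and 1956 normalized counts in high exopher worms, against 2427, 2207 and 2176 in low exopher worms. It was the only *ceh* gene whose groups did not overlap in this direction, with a log2 fold change of -0.24 ± 0.0949 (SE), an unadjusted p of 0.0340 and an adjusted p of 0.231. *ceh-63*, expressed in the DVC neuron, *ceh-79* and *ceh-93* had log2 fold changes of -0.34, -0.27 and -0.17 with adjusted p of 0.766, 0.671 and 0.704, and their groups overlapped.

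**Figure D2:**
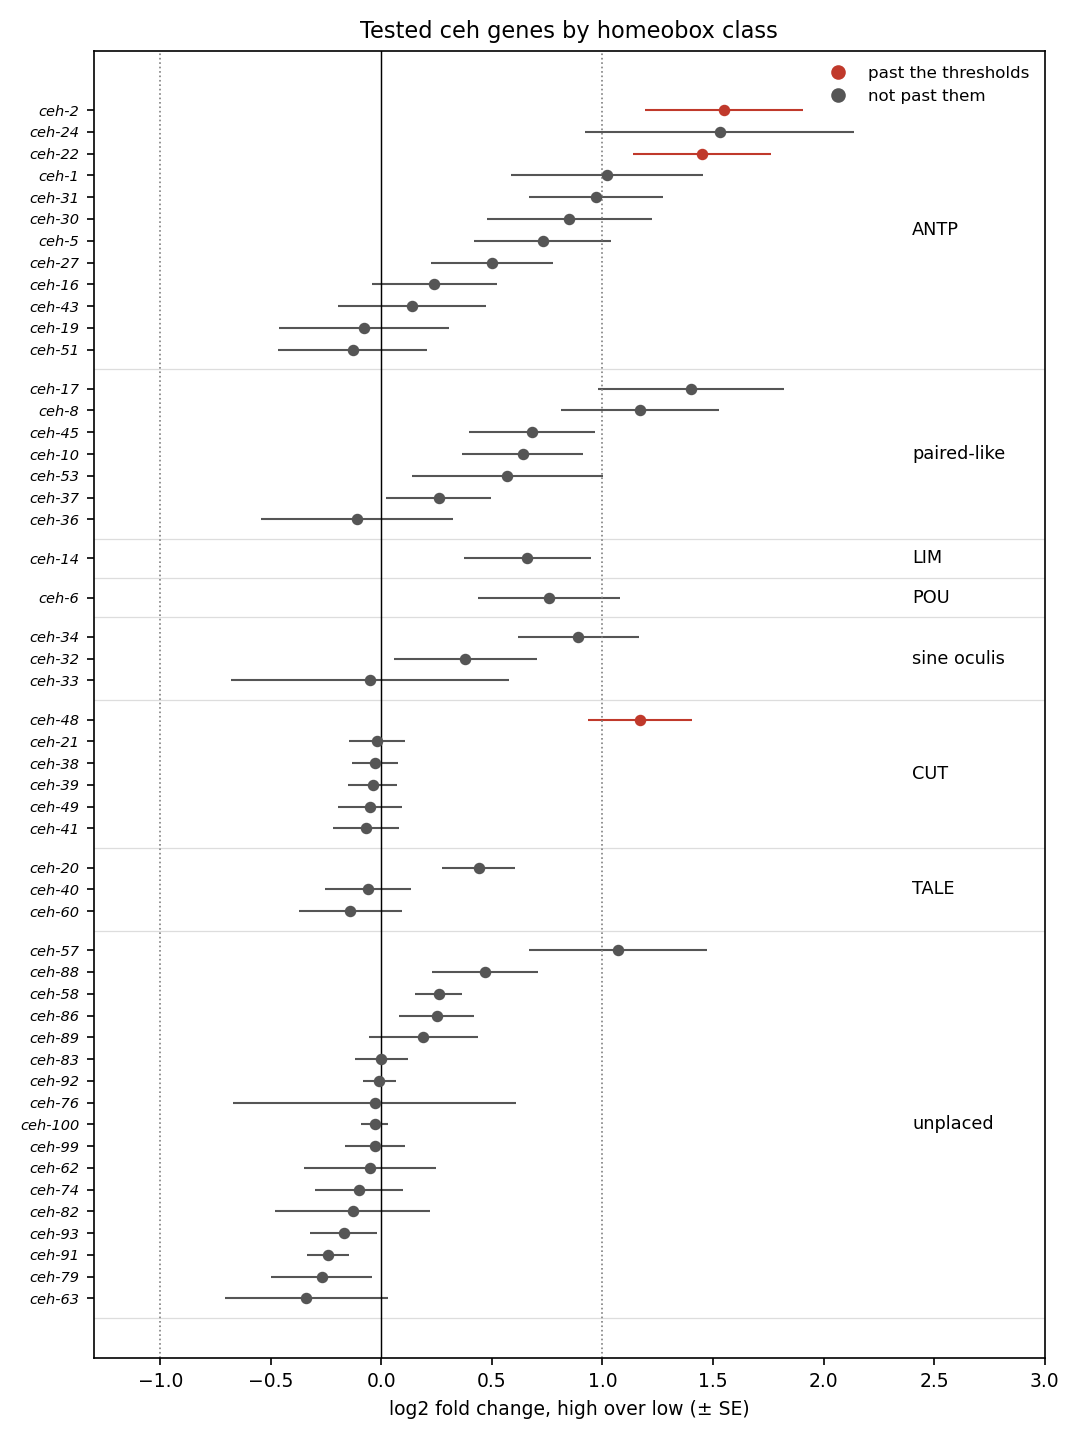
Log2 fold change (high over low) of the 50 tested *ceh* genes with its standard error as a bar, grouped by homeobox class, with dotted lines at -1 and 1. The 3 genes past the thresholds are in red, and no point lies below -0.34.

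All 3 called genes were among the *ceh* genes of low level. Mean normalized counts ran from 10.6 for *ceh-33* to 12072 for *ceh-38*, with a median of 260. Of the 25 genes at or below 259, 3 passed, 13 had an unadjusted p below 0.05 with higher expression in high exopher worms, and the median log2 fold change was 0.68. Without the 5 genes that met the filter's minimum throughout only 1 group, these values were 3, 9 and 0.65 over 20 genes. Of the 25 at or above 262, 0 passed, 3 had such a p, and the median was -0.02. Among all genes tested, those at or below the median level of the *ceh* genes had a median of -0.03 with 5.16% called higher, and those above it a median of -0.01 with 1.38% called higher. An unadjusted p below 0.05 with higher expression in high exopher worms was reached by 14.2% of the former and 5.26% of the latter. The sum over the 61 genes, which the few abundant members dominate, was 50841 to 62178 in high exopher worms and 52291 to 56158 in low exopher worms, so that it overlapped.

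Scaled to exon length and library size (RPKM), *ceh-38* was the most abundant, with 62.7 ± 7.18 in high exopher worms and 61.7 ± 3.10 in low exopher worms (SD, n = 3 each). *ceh-20* followed in high exopher worms with 32.1 ± 5.51, and had 22.8 ± 4.11 in low exopher worms. *ceh-100* had 29.6 ± 0.704 RPKM in high exopher worms and 29.2 ± 0.718 RPKM in low exopher worms. *ceh-39* had 26.1 ± 2.56 RPKM in high exopher worms and 25.9 ± 2.35 RPKM in low exopher worms. The order among *ceh-20*, *ceh-100* and *ceh-39* in high exopher worms was within their spread. On the same scale the called genes were far lower. *ceh-48* had 2.87 ± 0.348 RPKM in high exopher worms and 1.23 ± 0.301 in low exopher worms. *ceh-2* had 2.06 ± 0.648 in high exopher worms and 0.675 ± 0.225 in low exopher worms, and *ceh-22* had 1.42 ± 0.379 in high exopher worms and 0.499 ± 0.154 in low exopher worms.

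**Figure D3:**
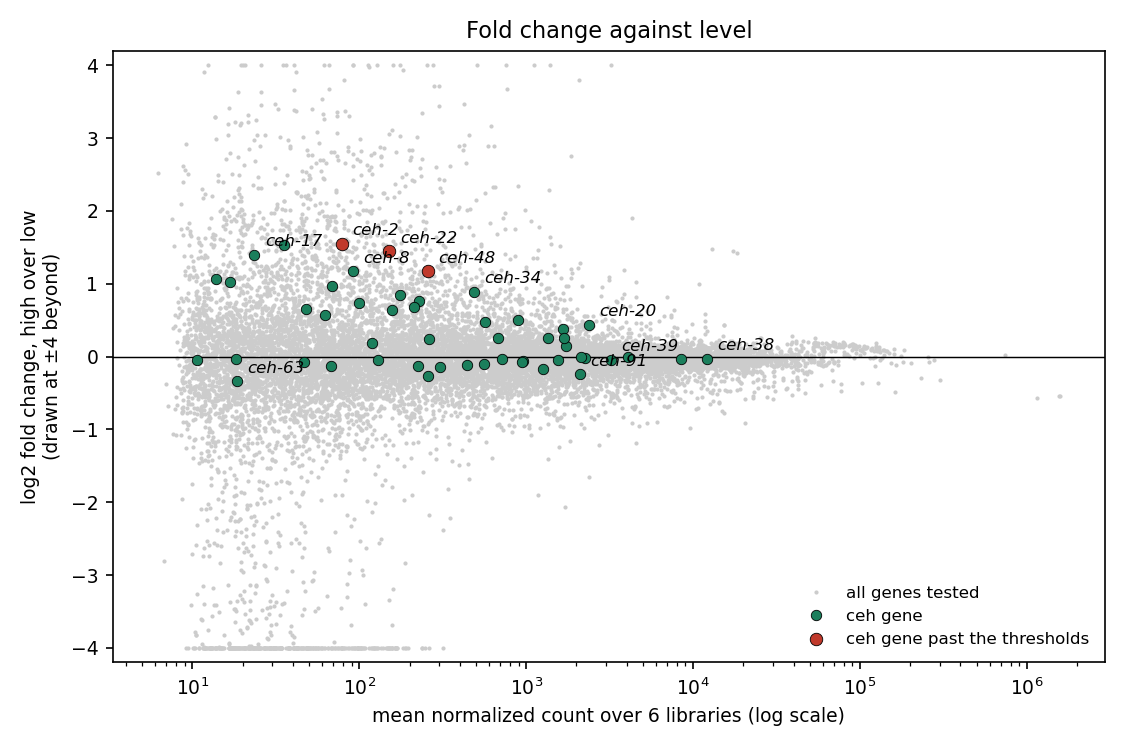
Log2 fold change (high over low) against the mean normalized count of the 6 libraries (log axis) for all 15883 genes tested in grey and the 50 *ceh* genes in green, or red where past the thresholds, with values beyond 4 in size drawn at 4. The called genes have means below 260, and *ceh-38* and *ceh-39*, among the most abundant, lie near 0.

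Of the 61 genes, 11 had too few counts to be tested. *ceh-90* had 16, 11 and 4 counts in the high exopher libraries, against 1, 0 and 2 in the low exopher libraries, and *ceh-54* had 13, 3 and 2 in the high exopher libraries, against 2, 2 and 0 in the low exopher libraries. For both, 1 or 2 high exopher libraries held most of the counts. *ceh-28*, a gene of the pharyngeal neuron M4, had 2 counts in every library. *ceh-12*, an HB9 type gene of VB motor neurons, had 5, 0 and 0 counts in high exopher worms, against 0, 1 and 0 in low exopher worms. *ceh-84* had 5, 6 and 9 in high exopher worms, against 8, 10 and 18 in low exopher worms. The other 6, *ceh-7*, *ceh-9*, *ceh-23*, *ceh-75*, *ceh-81* and *ceh-87*, held at most 12 counts in any library. A count of 0 allows up to 3 counts, which covers counting error only. The filter left these genes out, so no difference in them was tested. In normalized counts the groups did not overlap for *ceh-90* and overlapped or tied for the other 10.

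Among neighbours, *ceh-57* and *ceh-58*, 444 bases apart on chromosome II, had log2 fold changes of 1.07 ± 0.404 and 0.26 ± 0.106 (SE). *ceh-34* and *ceh-33* had 0.89 ± 0.274 and -0.05 ± 0.628 (SE). *ceh-57*, which entered the test through its high exopher libraries, and *ceh-33* had few counts, and differences within pairs were not tested. Other neighbours had closer values, with -0.07, -0.02 and -0.04 for *ceh-41*, *ceh-21* and *ceh-39*. *ceh-30* and *ceh-31* had 0.85 and 0.97, *ceh-82* and *ceh-83* -0.13 and 0.00, and *ceh-36* and *ceh-37* -0.11 and 0.26. All 6 tested *ceh* genes of chromosome I (*ceh-2*, *ceh-17*, *ceh-8*, *ceh-6*, *ceh-5* and *ceh-45*) had log2 fold changes between 0.68 and 1.55, with a median of 0.97. *ceh-17* entered the test through its high exopher libraries, and *ceh-9* and *ceh-12* of this chromosome were not tested. Of the 6, 1 was called higher. All 2526 genes tested on that chromosome had a median of -0.00, and 2.02% were called higher. The *ceh* medians of chromosomes II, III, IV, V and X were -0.03, 0.19, 0.52, -0.03 and -0.03. *ceh-88* shares 809 exon bases with C49C3.6 on the same strand, so its counts, with a log2 fold change of 0.47, are uncertain.

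Homeobox genes with other names were given beside the *ceh* genes from a list of 36, of which 35 were tested. Of these, 2 passed as higher in high exopher worms (5.71%, against 2.95% of all genes), 0 passed as lower, and the median was 0.49. A log2 fold change above 0 was found for 31 (88.6%, against 47.2% of all genes). At an unadjusted p below 0.05 in edgeR's test, 15 were higher (42.9%, against 32% of the *ceh* genes). The groups did not overlap for 16 that were higher (45.7%, against 34% of the *ceh* genes). In both counts 0 were lower. *unc-42*, a paired-like gene of command interneurons and other neurons, averaged 297 ± 114 in high exopher worms and 88.7 ± 40.2 in low exopher worms (SD, n = 3 each), a log2 fold change of 1.74 with an adjusted p of 0.0466. *lim-4*, a LIM gene of AWB and of head motor neurons, averaged 169 ± 33.4 in high exopher worms and 68.0 ± 18.4 in low exopher worms, a log2 fold change of 1.31 with an adjusted p of 0.0375. The smallest p of the list belonged to *zfh-2*, with a log2 fold change of 0.58 and an adjusted p of 0.0305, below the fold threshold. With the replicate block and in DESeq2, 5 of the 35 passed, and leaving out any 1 library gave between 0 and 4.

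Markers of cell types moved with the groups to different extents, and their part in the *ceh* values was not tested. Of 38 ciliated neuron genes, 14 passed as higher (36.8%, against 2.95% of all genes) and 0 as lower, with a median of 1.10. Their summed normalized counts were 10114 to 11784 in high exopher worms and 7286 to 7799 in low exopher worms. *osm-5*, which encodes a subunit of intraflagellar transport, had the smallest p, with a log2 fold change of 1.38 and an adjusted p of 0.0170. Without high exopher replicate 1 or 3 or low exopher replicate 3, 0 of the 38 passed, without high exopher replicate 2, 1 passed, and without low exopher replicate 1, 2 passed. Of 19 pan-neuronal genes, 0 passed in either direction, the median was -0.03, and the sums overlapped, at 88713 to 99730 in high exopher worms and 95319 to 101004 in low exopher worms. *sng-1*, a synaptic vesicle gene, had the smallest p of them, with a log2 fold change of 0.91 and an adjusted p of 0.126. Of 10 pharyngeal muscle genes, 0 passed with a median of 0.21, and the sums were 5817 to 8720 in high exopher worms and 5765 to 7878 in low exopher worms. The log2 fold changes of these 10 ran from -0.82 to 3.18, and 7 lay above 0, where 47.2% of all genes did. At an unadjusted p below 0.05 in edgeR's test, 3 were higher and 0 lower, where all genes gave 8.98% and 8.07%. The groups did not overlap for 3 that were higher and 0 that were lower, compared with 11.8% and 9.96% of all genes.

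Zygotic embryo genes were listed as markers of embryos held in the uterus, though whole worm RNA does not show which cells their counts came from. They gave 0 calls among 18 tested of 20 (of which *vab-7* is also on the list of other homeobox genes), with a median of -0.04. Their sums were 10088, 15195 and 10362 in the high exopher libraries, against 11688, 13629 and 10962 in the low exopher libraries. Replicate 2 had the highest sum in each group. It also had the highest normalized count of each group for *ceh-36*, *ceh-43* and *ceh-32*. The same held for the called gene *ceh-48* and, among others, for *ceh-34*, *ceh-6*, *ceh-20* and *ceh-10*. For *ceh-2* and *ceh-22*, high exopher replicate 1 was the highest of its group. The link of these patterns to the embryo genes was not tested. Of 26 sperm genes tested, 15 passed as lower and 0 as higher, where all genes gave 2.78% and 2.95%. The sperm genes had a median of -3.74 and sums of 2636 to 3192 in high exopher worms and 4801 to 10733 in low exopher worms. Without high exopher replicate 1, 2 and 3 in turn, 0, 9 and 2 sperm genes passed. Of 19 molting and larval cuticle genes, 5 passed as higher (26.3%, against 2.95% of all genes) and 0 as lower. They had a median of 0.65 and sums of 51770 to 71678 in high exopher worms and 25945 to 44137 in low exopher worms. Without high exopher replicate 1, 2 and 3 in turn, 0, 3 and 1 of them passed, and without low exopher replicate 1 and 3 in turn, 1 and 2. No marker of the ciliated neuron, pan-neuronal, embryo, molting or pharyngeal muscle lists was at 0 in all libraries of a group. Of 17 oocyte and eggshell genes, 0 passed, with a median of -0.07. Of 15 body wall muscle genes, the troponin gene *tni-1* passed as higher (6.67%, against 2.95% of all genes), though not without high exopher replicate 1. Most of the list went the other way, with 11 below 0. At an unadjusted p below 0.05 in edgeR's test, 8 were lower and 3 higher, where all genes gave 8.07% and 8.98%. The groups did not overlap for 8 that were lower and 3 that were higher, compared with 9.96% and 11.8% of all genes. The median of these 15 was -0.36, and their sums were 166580 to 201085 in high exopher worms and 217923 to 247889 in low exopher worms.

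**Figure D4:**
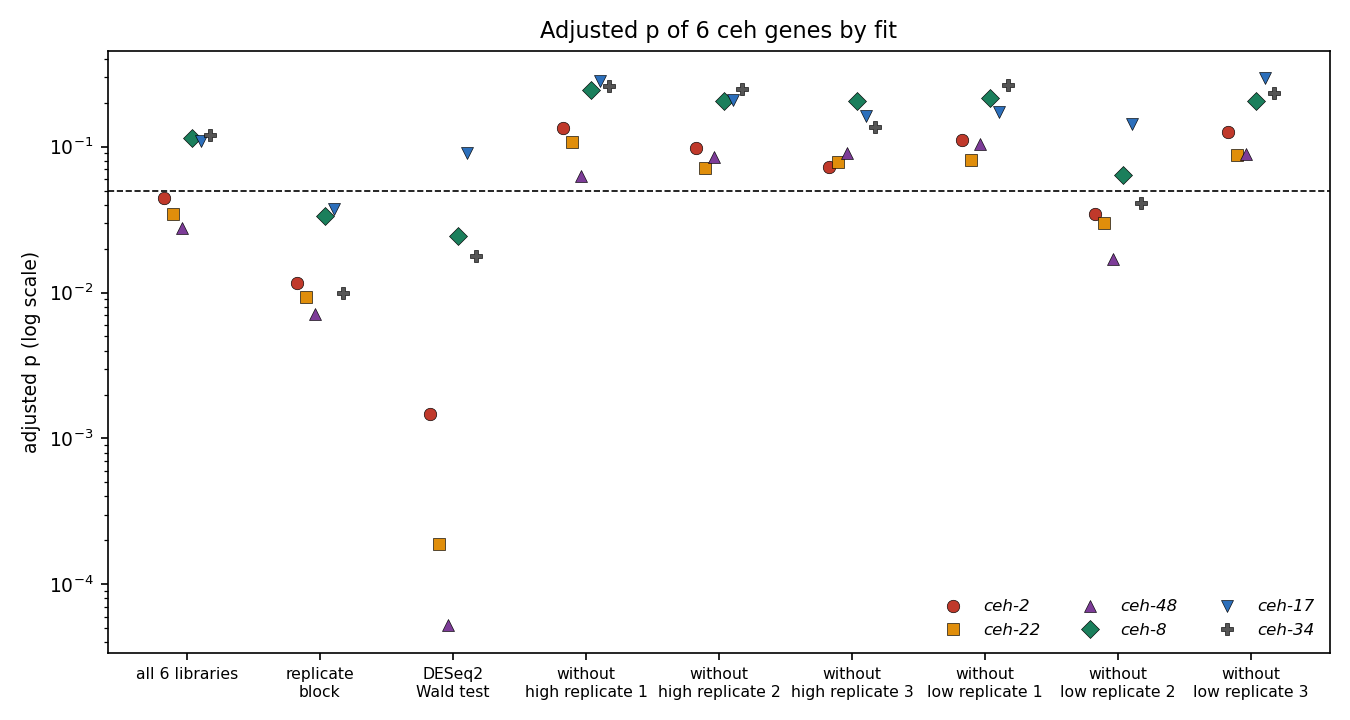
Adjusted p (log axis) of 6 *ceh* genes in edgeR's test on all 6 libraries, with the replicate number as a block, in DESeq2's Wald test, and in edgeR's test without each library in turn, with a dashed line at 0.05. *ceh-2*, *ceh-22* and *ceh-48* lie below the line with all libraries, with the block, in DESeq2 and without low exopher replicate 2, and above it without any other library.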

How the data were processed

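The authors trimmed paired-end reads with Trimmomatic 0.36, aligned them to an Ensembl *C. elegans* genome with STAR 2.5.2b and counted uniquely mapped exon reads with featureCounts (Subread 1.5.2). The release of the genome and the strand setting are not given in the sources used here. The deposited counts are unnormalized. The authors also deposited a normalized signal table (counts divided by a DESeq2 size factor), used here only as a check.

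Groups and replicates were taken from the labels. Symbols, positions and exon lengths came from the Ensembl release 115 annotation of WBcel235, which held 46581 of the 46756 identifiers. The counts were tested with edgeR 4.0.16 in R 4.3.3 (filterByExpr, TMM, robust quasi-likelihood F test without covariates) and Benjamini-Hochberg adjustment over all 15883 genes tested. Each standard error is the log2 fold change divided by the square root of F. The method was tested on simulated data. With 60511481 to 72909583 counts per library, genes of a few counts carry wide counting error. Normalized counts are counts over the effective library size, times its mean.

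Alternatives were other scalings and filters, DESeq2 1.42.0, limma-voom (limma 3.58.1), a test against the fold threshold, a replicate block, and leaving out each library. After subtracting the group mean of each gene, high and low libraries of the same number correlated (r = 0.275, 0.244 and 0.325 over genes, which are not independent), and those of different numbers did so with r from -0.17 to -0.118. Because deviations from a group mean cancel within the group, the negative values follow from the positive ones and add no separate support. From the same-numbered correlations the numbers were taken to pair the libraries, a reading from the data, since the labels state no pairing. The calls with the replicate block rest on this reading.

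The members, classes and lists were chosen with earlier results of these data known. Genes named were the *ceh* genes past the thresholds, the 4 highest and 4 lowest log2 fold changes, and the smallest p of each class. The smallest p of the other homeobox, ciliated neuron and pan-neuronal lists, the 4 highest levels per exon length, and a set with well known roles were also named. Others were named after their values were seen. No sequences are shown.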

Additional observations from a re-analysis of the deposited data

How the results depend on the processing

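The 3 *ceh* calls held under other scalings, without the filter on low counts and in DESeq2, and *ceh-2* was lost with a CPM filter (adjusted p = 0.0574) and in limma-voom (0.0514). With the replicate block 5 *ceh* genes passed, and against a log2 fold change of 1, 0 did. Without 1 library, 0 to 4 passed. The median of the *ceh* genes stayed between 0.15 and 0.34, except for 0.04 without high replicate 2. The block also moved the other homeobox genes past the thresholds to 5 and the pharyngeal muscle genes to 1, and changed no other list's call count by over 1.5 times. Among the other named *ceh* genes, *ceh-38* and *ceh-39* changed sign in 3 of 16 alternatives, *ceh-36* and *ceh-43* in 2, and *ceh-60* and *ceh-100* in 1. The cause of these shifts was not tested.

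Over all genes, those higher numbered 279 with the CPM filter, 94 against a log2 fold change of 1 and 5 to 465 without 1 library. Those lower numbered 670 without the filter, 83 with the CPM filter, 262 against a log2 fold change of 1 and 0 to 663 without 1 library. The other homeobox genes called numbered 4 without the filter, 1 with the CPM filter, 5 in DESeq2, 0 against a log2 fold change of 1 and 0 to 4 without 1 library. Without 1 library, ciliated neuron calls were 0 to 12, sperm calls 0 to 17, molting calls 0 to 7 and body wall muscle calls 0 to 1. Against a log2 fold change of 1, ciliated neuron calls were 0, molting calls 1 and body wall muscle calls 0. Sperm calls were 8 with the CPM filter. Pharyngeal muscle calls were 1 without the filter and 2 in DESeq2.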
